A study of Drosophila melanogaster with 8 samples.

Results

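Superoxide dismutases *Sod2* and *Sod3* were described on a 2-colour *Drosophila melanogaster* cDNA array that compared flies treated alike. The members were all clones whose gene is *Sod2* or *Sod3* by the platform symbol or its current name for the same Entrez identifier. That gave 2 clones, 1 per gene, of 8448 clones on the array and of 2833 clones with a single gene symbol. Each clone was printed as 2 neighbouring spots. No clone carried the symbol of *Sod1*, the cytosolic copper-zinc enzyme, so that gene was not analysed here.

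Superoxide dismutases turn superoxide, a by-product of respiration, into hydrogen peroxide and oxygen. *Sod2* encodes the manganese enzyme of the mitochondrial matrix, next to the respiratory chain. *Sod3* encodes a copper-zinc member of the family that is related to extracellular superoxide dismutases. The hydrogen peroxide that they make is removed by peroxidases such as peroxiredoxins and glutathione peroxidases.

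All RNA came from adult females of the wild-type strain Oregon-R, 4 to 10 days old, kept at 16 h of light and 8 h of dark and 60% relative humidity. Each of 8 separate pools of about 240 whole flies was sprayed with 2 mL of 99% ethanol in a Potter's tower, a bench device for even spraying, and sampled 6 h later. No untreated flies are among these samples, so the values say nothing of an effect of ethanol. Pools were hybridized in 4 pairs (1 with 2, 3 with 4, 5 with 6 and 7 with 8). Each pair was run on a normal-label array (odd pool in Cy3, even pool in Cy5) and on a reversed-label array with the dyes exchanged, so that each label group holds 4 arrays.

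Each value is read as a log2 ratio between the 2 channels of an array, with base 2 assumed because the base is not stated. The largest absolute spot value was 17.5, which is extreme at base 2 and more so at a larger base. The size of the values thus does not settle the base, and all folds below rest on that assumption. A ratio between like pools gives no level, so the labelled sex was not checked against marker genes. Whole flies were pooled, so fewer cells of a type and less RNA per cell cannot be told apart. With signs as deposited, arrays of opposite label from different pairs had a median correlation of -0.157 across clones (9 of 12 below 0). The values were therefore read as 1 pool over the other, which is likely but is not stated in the labels. In pair 3 the reversed-label array was unlike the rest, with correlations of -0.142 to 0.0316 to the other reversed-label arrays, which correlated with each other at up to 0.356. With 8 arrays, all values below have limited precision.

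The *Sod2* clone was above 0 on every normal-label array. Its log2 ratios there, signs as deposited and spots averaged, were 1.29, 0.74, 2.24 and 0.30 in pairs 1 to 4. On the reversed-label arrays they were -0.47, -0.83, -0.24 and 0.07. The normal-label array of pair 3 was the highest of the 8 and the reversed-label array of pair 2 the lowest. The label groups did not overlap, and 1 of 4 reversed-label values lay above 0. The *Sod2* ratio was past 2-fold on 2 of the 8 arrays, both of normal label.

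The *Sod3* clone, too, was above 0 on every normal-label array. In pairs 1 to 4 its log2 ratios with normal label were 1.19, 1.18, 1.71 and 0.62. With reversed label they were -0.27, -1.23, 0.02 and -0.03. Here too the normal-label array of pair 3 was the highest and the reversed-label array of pair 2 the lowest, and the label groups did not overlap. The ratio was past 2-fold on 3 normal-label arrays and on the reversed-label array of pair 2. Over all clones, label groups that did not overlap were found in 12.8%, and in 5.6% with the normal-label values above 0 and above the reversed-label values, as for both *Sod* clones.

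**Figure D1:**
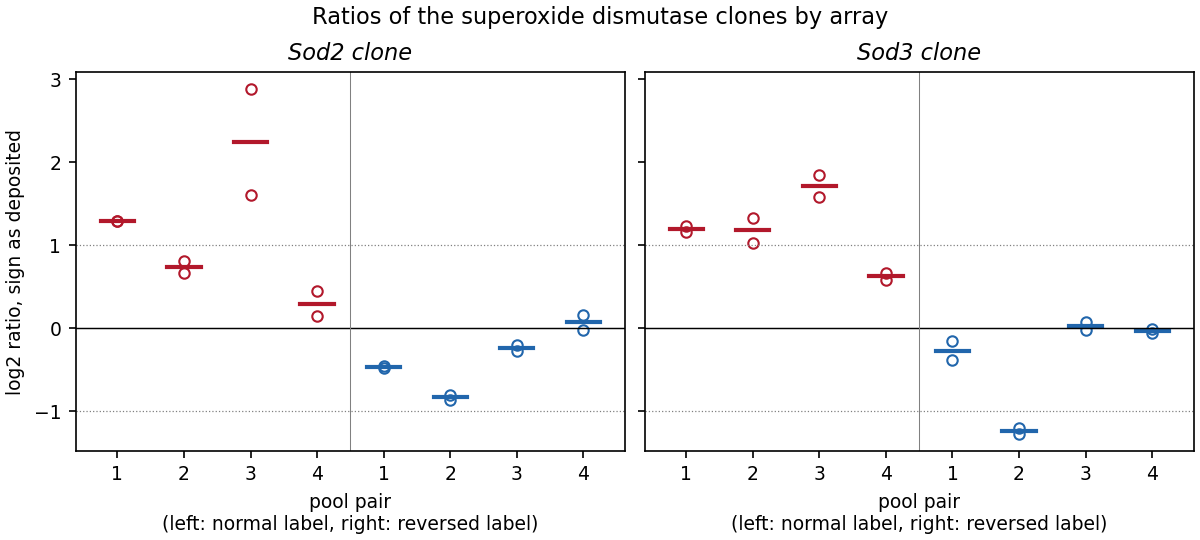
Log2 ratio (sign as deposited, array median subtracted) of the *Sod2* and *Sod3* clones on each array. Circles are the 2 spots of the clone, bars their mean, red the normal-label and blue the reversed-label arrays of pairs 1 to 4, and dotted lines mark 2-fold. The normal-label means lie between 0.30 and 2.24 for *Sod2* and between 0.62 and 1.71 for *Sod3*, above all reversed-label means of the same clone.

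Set among all clones of the same array, both *Sod* clones lay near the upper end on normal-label arrays. On the normal-label array of pair 1, 42 clones (0.497%) had a higher ratio than *Sod2* and 52 (0.616%) a higher ratio than *Sod3*. In pair 3 these numbers were 27 and 57, although 7.63% of all clones were past 2-fold on that array. They were 174 and 58 in pair 2, and 1074 and 168 in pair 4, where *Sod2* was thus less extreme. At the lower end, 2.41% of clones lay below *Sod2* and 1.01% below *Sod3* on the reversed-label array of pair 2. On the reversed-label arrays of pairs 3 and 4, *Sod3* stood near the middle, with 53.4% and 45.8% of clones below it.

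The duplicate spots show the error within an array. The *Sod2* spots differed by 0.0075 to 0.31 on 7 arrays and by 1.27 on the normal-label array of pair 3, where they read 2.88 and 1.61. A larger difference was found in 4.49% of clones on that array, so the highest *Sod2* value is also the one with the widest gap between its spots. The *Sod3* spots differed by 0.043 to 0.31 over all 8 arrays, and on the normal-label array of pair 3 they read 1.58 and 1.84. The median difference over all clones was 0.155 to 0.271 by array.

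The first comparison asked which part of these ratios stays with the dye when the pools are exchanged. Since the labels do not name the numerator, dye A stands here for whichever dye the numerator pool carried under normal label, and dye B for the other. The dye component of a pair is its normal-label value minus its reversed-label value, divided by 2. For *Sod2* it was 0.88, 0.79, 1.24 and 0.11 in pairs 1 to 4, and for *Sod3* 0.73, 1.21, 0.84 and 0.33. It was above 0 in 4 of 4 pairs for both clones and smallest in pair 4, while the largest value fell in pair 3 for *Sod2* and in pair 2 for *Sod3*.

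The mean dye component was 0.75 ± 0.47 (SD, n = 4 pairs) for *Sod2*, a 1.69-fold excess in dye A, and limma gave an adjusted p of 0.0349 over 8448 clones. It was 0.78 ± 0.36 (SD, n = 4 pairs) for *Sod3*, a 1.71-fold excess, with a limma adjusted p of 0.0204. Both clones were thus called, against a background of 8.56% of all clones (4.25% towards dye A and 4.31% towards dye B). A higher mean was found in 26 clones (0.308%) than in *Sod2* and in 25 (0.296%) than in *Sod3*. Since the members were chosen with earlier results of these data known, these calls and ranks describe the clones and are not independent evidence. In an exact two-sided sign-flip permutation test over the 4 pairs, 2 of 16 sign patterns were as extreme as that observed for each clone, the fewest that 4 pairs allow, so this test cannot reach 5%. Neither clone passed when pair 1, 2 or 3 was left out (limma adjusted p between 0.0881 and 0.134 for *Sod2* and between 0.0656 and 0.0967 for *Sod3*). Both passed without pair 4, where their dye components were smallest (limma adjusted p = 0.029 and 0.0303). With all 8 arrays taken as independent, neither passed (limma adjusted p = 0.0873 and 0.0778). With the reversed-label array of pair 3 then left out, *Sod2* stood at 0.83 (limma adjusted p = 0.0536) and *Sod3* at 0.89 (0.0295). With any 1 of the other 7 arrays left out in its place, neither passed (limma adjusted p between 0.109 and 0.216 for *Sod2* and between 0.0946 and 0.2 for *Sod3*).

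*Sod3* minus *Sod2* in the dye component was -0.15, 0.42, -0.40 and 0.22 in pairs 1 to 4. The mean difference was 0.023 ± 0.36 (SD, n = 4 pairs), smaller than its spread, with *Sod3* the higher in 2 of 4 pairs (exact two-sided sign-flip permutation test, p = 0.875). With 4 pairs that test cannot reach 5% at any difference, so it does not show that the clones are alike.

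The second comparison asked which part goes with the pool. The even-odd component of a pair is the mean of its 2 arrays with signs as deposited, and parity carries no treatment. For *Sod2* it was 0.41, -0.05, 1.004 and 0.18 in pairs 1 to 4, and for *Sod3* 0.46, -0.03, 0.87 and 0.30. Both clones had the order pair 3, pair 1, pair 4, pair 2 from high to low, and pair 2 alone lay below 0. The means were 0.39 ± 0.45 for *Sod2* and 0.40 ± 0.37 for *Sod3* (SD, n = 4 pairs), and neither passed in limma (adjusted p = 0.821 for both). Of all clones, 0% were called in that test, with 451 (5.34%) at an unadjusted limma p under 0.05, among them *Sod2* (unadjusted p = 0.0439) and *Sod3* (unadjusted p = 0.0225). *Sod3* minus *Sod2* had a mean of 0.012 ± 0.11 (SD, n = 4 pairs), with differences between -0.14 in pair 3 and 0.11 in pair 4 (exact two-sided sign-flip permutation test, p = 0.875).

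**Figure D2:**
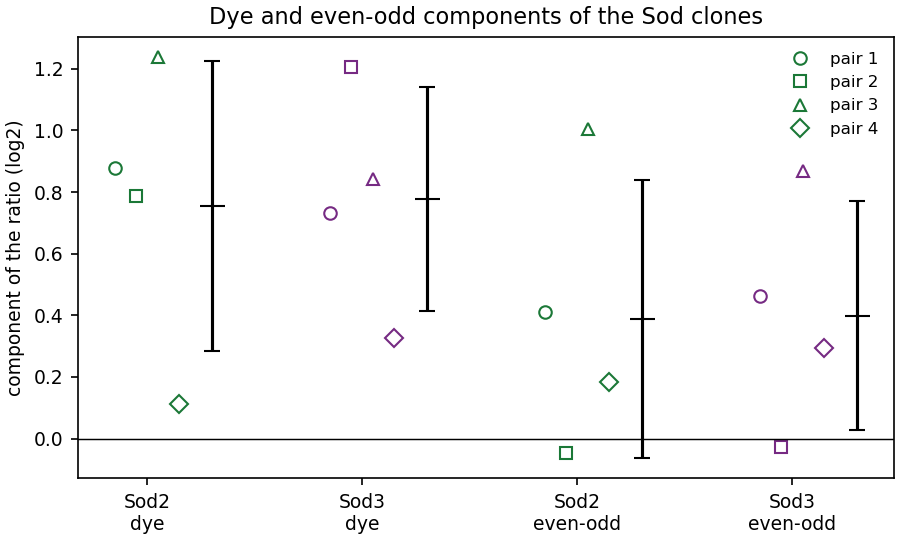
Dye and even-odd components (log2) of the *Sod2* (green) and *Sod3* (purple) clones. Open symbols are the 4 pairs and the black mark with its bar is the mean ± SD. All 8 dye values lie above 0, from 0.11 to 1.24, while the even-odd values of pair 2 lie just below 0.

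The third comparison asked whether the pools of single pairs differed by more than repeat hybridization of the same RNA does, with all 8 arrays in one model and 1 dye term for all pairs. Only pair 3 (pools 5 and 6) had an unadjusted p under 0.05 for the *Sod* clones. There the difference was 1.004 ± 0.32 (SE) for *Sod2* and 0.87 ± 0.26 (SE) for *Sod3*, and neither passed (limma adjusted p = 0.119 and 0.102). In that pair 3.2% of all clones were called. In pair 1 the differences were 0.41 and 0.46 (limma adjusted p = 0.908 and 0.831), and those of pairs 2 and 4 were smaller. In the F-test over the 4 pairs *Sod2* had a limma adjusted p of 0.413 and *Sod3* of 0.341. That test called 0% of all clones, with 1262 (14.9%) at an unadjusted p under 0.05. Without the reversed-label array of pair 3, the pair 3 difference of *Sod2* was 1.65 (limma adjusted p = 0.104) and that of *Sod3* 0.96 (0.253).

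**Figure D3:**
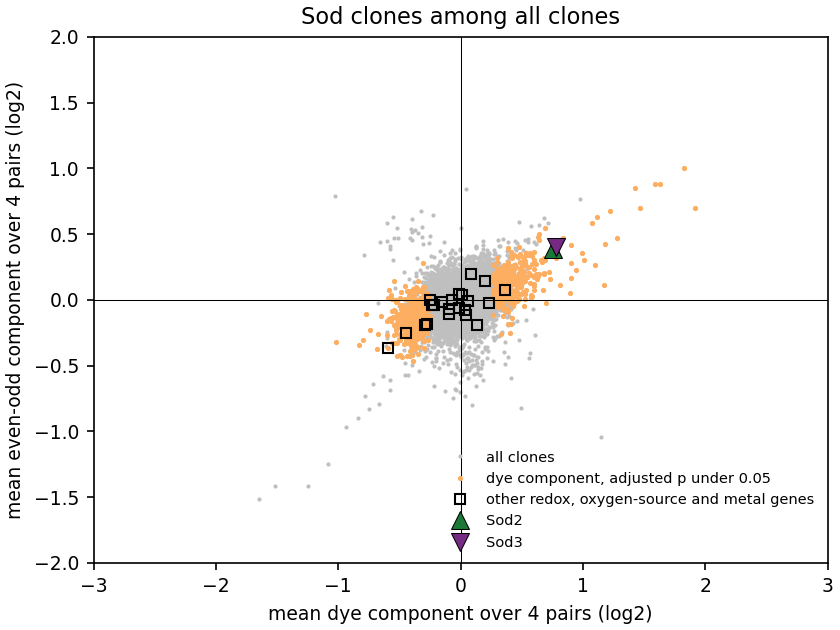
Mean dye component against mean even-odd component (log2, 4 pairs) for all 8448 clones in grey, with clones called in the dye component in orange. Squares are the other clones of the 5 gene lists, and the triangles of *Sod2* (0.75, 0.39) and *Sod3* (0.78, 0.40) nearly coincide at the upper right.

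The other genes that handle superoxide and its products were read from 5 lists with 24 clones of 22 genes, the *Sod* clones included. The antioxidant enzymes had 6 clones, of which 2 were called towards dye A (the *Sod* clones), 1 towards dye B and 3 were not called, against 8.56% of all clones called (4.25% towards dye A and 4.31% towards dye B). With so few clones, and with the *Sod* clones chosen, this share says nothing particular of the list. The median dye component of these 6 was -0.0088, against 0.0044 over all clones. Without the *Sod* clones the median of the other 4 was -0.22. *Ccs*, the chaperone that loads copper onto the Sod1 enzyme, was lower in dye A, at -0.28 ± 0.09 (SD, n = 4 pairs, limma adjusted p = 0.0477). That call was lost without any 1 of the 4 pairs (limma adjusted p between 0.0673 and 0.201), with the pair as a replicate block (0.0698), with arrays scaled to one spread (0.101) and with quantile normalization (0.104). Its log2 ratios, signs as deposited, were -0.53, -0.09, -0.85 and -0.37 with normal label in pairs 1 to 4 and 0.21, 0.46, -0.25 and -0.05 on the reversed-label arrays. *Ccs* was thus below 0 on each normal-label array, where both *Sod* clones were above 0.

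The peroxidases of the list did not pass. *Gtpx*, a glutathione peroxidase homologue, stood at -0.29 ± 0.21, the mitochondrial peroxiredoxin *Prx3* at -0.15 ± 0.07 and *Pxn*, a peroxidase of the extracellular matrix, at 0.13 ± 0.18 (mean dye component ± SD, n = 4 pairs, limma adjusted p = 0.0913, 0.188 and 0.349). In pair 3, where the *Sod* clones were at 1.004 and 0.87, the pool differences of *Gtpx* (-0.79, limma adjusted p = 0.0627), *Ccs* (-0.55, 0.0707) and *Pxn* (-0.45, 0.158) lay below 0 and did not pass either.

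None of the 4 clones for thioredoxin and glutathione redox was called in the dye component. With 8.56% of all clones called, a count of 0 in lists of 4 or 5 clones does not set them apart. The thioredoxin gene *Trx2* stood at -0.25, its testis relative *TrxT* at 0.038, the glutaredoxin *Grx1t* at 0.088 and *Gclm*, the modifier subunit of the enzyme that starts glutathione synthesis, at 0.23 (limma adjusted p between 0.0822 and 0.743). Redox signalling had 0 of 5 clones called. These were *Keap1*, the inhibitor of the antioxidant transcription factor *cnc* (-0.069), the transcription factor *foxo* (0.20), the JNK phosphatase *puc* (-0.23), *dj-1beta*, a homologue of a human Parkinson disease gene (0.045), and the sestrin *Sesn* (-0.22). Metal handling also had 0 of 4 clones called, namely the metal-responsive transcription factor *MTF-1* (0.012), the manganese and iron transporter *Mvl* (-0.094) and both clones of the mitochondrial iron importer *mfrn* (-0.011 and 0.058).

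Sources of reactive oxygen had 3 of 5 clones called, against 8.56% of all clones, all in subunits of respiratory complex I, the mitochondrial neighbour of *Sod2*. These 5 clones stood for 4 of 38 listed genes, and the lists were chosen with earlier results of these data known. Their share thus says nothing particular of the list. *ND-51* was higher in dye A (0.36 ± 0.04), while *ND-B8* (-0.60 ± 0.21) and 1 of 2 clones of *ND-13A* (-0.45 ± 0.07) were lower (mean ± SD, n = 4 pairs, limma adjusted p = 0.0214, 0.0189 and 0.0186). None of the 3 passed when pair 1, 2 or 3 was left out (limma adjusted p between 0.0625 and 0.0988 for *ND-51*, 0.0585 and 0.0967 for *ND-B8*, and 0.0537 and 0.0967 for *ND-13A*), nor did *ND-51* without pair 4 (0.0567). *ND-B8* and that *ND-13A* clone passed without pair 4 (limma adjusted p = 0.0423 and 0.0458). The *ND-13A* call was also lost with the pair as a replicate block (limma adjusted p = 0.0525), with arrays scaled to one spread (0.055) and with quantile normalization (0.0544). The second *ND-13A* clone stood at -0.097 and the uncoupling protein gene *Ucp4C* at -0.013, and neither passed (limma adjusted p = 0.498 and 0.95). In pair 3, *ND-B8* (-1.14, limma adjusted p = 0.0306) and the called *ND-13A* clone (-0.99, 0.0233) passed as pool differences, below 0 where *Sod2* was at 1.004. *ND-51* (0.35, limma adjusted p = 0.148) and *Ucp4C* (0.31, 0.421) lay above 0 there, as *Sod2* did, and the second *ND-13A* clone at -0.54 (0.108), and these did not pass. The *ND-B8* and *ND-13A* differences did not pass when pair 1 or 2 was left out (limma adjusted p between 0.0569 and 0.066), with only the normal-label array kept for pair 3 (0.0691 and 0.0773) or with arrays scaled to one spread (0.174 and 0.176). Without pair 4 these differences passed (limma adjusted p = 0.0453 and 0.0377).

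**Figure D4:**
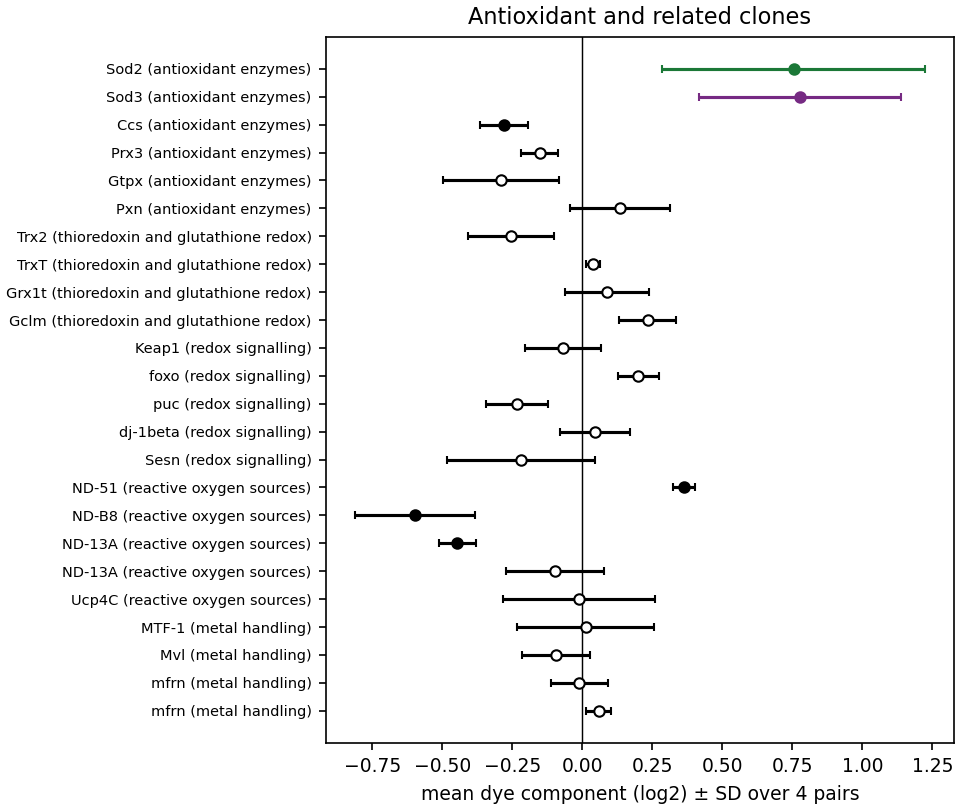
Mean dye component (log2) ± SD over 4 pairs of the 24 clones of the 5 lists, with filled circles for a limma adjusted p under 0.05. *Sod2* and *Sod3*, at 0.75 and 0.78, lie furthest to the right, and *ND-B8*, at -0.60, furthest to the left.

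The patterns of both *Sod* clones over the 8 arrays were close to each other, with Pearson r = 0.937 and Spearman rho = 0.976, and r = 0.951 without the arrays of pair 3. These are descriptions without a p-value, since the values share arrays, dyes and pools and the 2 arrays of a pair are not independent. At the lower mark of r above 0.8, 7.66% of clones were alike with *Sod2* and 7.62% with *Sod3*. With *Sod2*, 56 of 8447 clones had a higher r than *Sod3* had, and with *Sod3*, 74 had a higher r than *Sod2*.

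Among clones of 1 gene symbol, those most like *Sod2* were *CG8520* (r = 0.985), the alpha-tubulin gene *alphaTub85E* (0.983), the Hsp70 family gene *Hsc70-2* (0.976), *CG18858* (0.967) and the protein O-fucosyltransferase gene *O-fut1* (0.964). Their ratios differed in size, since *alphaTub85E* reached 5.69 on the normal-label array of pair 3 and *O-fut1* 0.51. Those most like *Sod3* were *CG9257* (0.989), *CG7156* (0.985), the dynein light chain gene *Cdlc2* (0.983), the proteasome subunit gene *Prosbeta2R2* (0.982) and *CG9747* (0.980). The choice of names was not firm. Without the arrays of pair 3, 1 of the 5 named for *Sod2* and 2 of the 5 named for *Sod3* were among the first 5. By Spearman correlation the numbers were 2 and 0, but clones with equal rho were taken in order of clone number. *CG9747* was left out although its rho with *Sod3* was 1. *CG8520* and *CG18858* were left out at the rho of 0.976 with *Sod2* that *alphaTub85E* and *Hsc70-2*, both kept, also had. The places of *CG9747*, *CG8520* and *CG18858* thus rest on the order of ties. Those of the other clones left out do not. *CG9257*, *CG7156*, *Cdlc2* and *Prosbeta2R2* had a rho of 0.929 to 0.976 with *Sod3*, below that of *CG9747*. *O-fut1* had a rho of 0.952 with *Sod2*, below that of the clones kept.

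**Figure D5:**
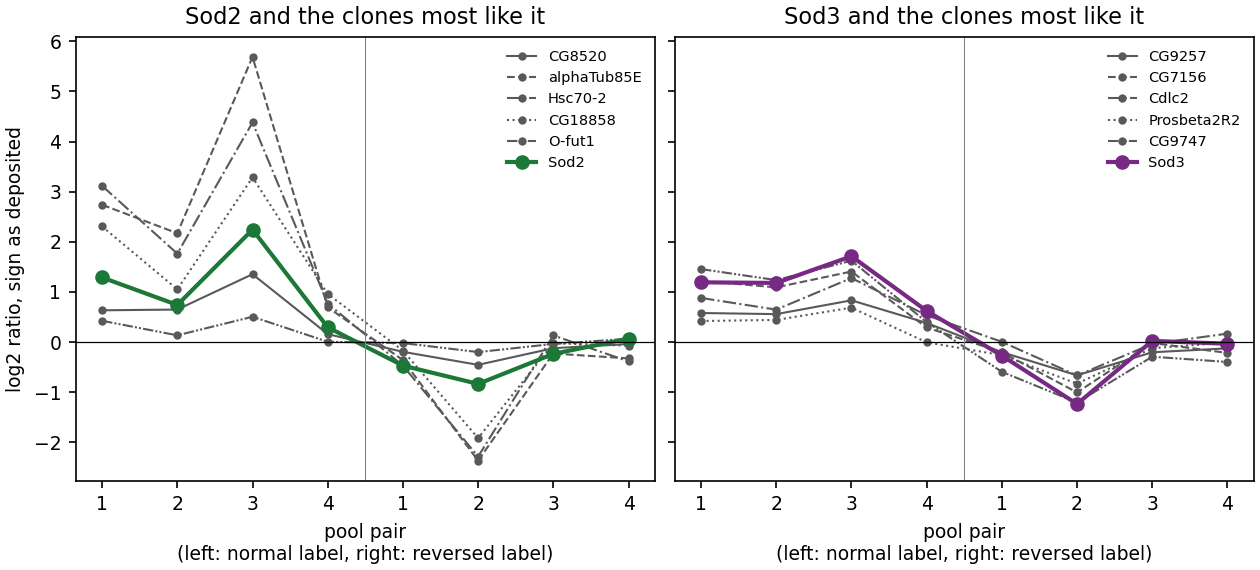
Log2 ratio (sign as deposited) on each array for *Sod2* (left) and *Sod3* (right), in colour, and for the 5 clones of 1 gene symbol with the highest Pearson correlation to it, in grey. Lines join arrays only to show the pattern. Each clone is highest on the normal-label array of pair 3 and lowest on the reversed-label array of pair 2.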

How the data were processed

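Both channels of 8 two-colour arrays were compared, and the deposited values were read as log2 ratios, 1 per spot for 16896 spots, centred near 0 on each array as deposited. Their log base, numerator, background correction and normalization were not given in the sources used here, and base 2 was assumed. Each array's median was subtracted and spots 2k-1 and 2k were averaged into 8448 clones (Python 3.11.15, pandas 2.3.3). Gene symbols came from GEO's platform annotation and were updated through Entrez identifiers with a RefSeq gene table (assembly Release 6 plus ISO1 MT), which served for names alone.

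Clones were tested with lmFit and eBayes of limma 3.58.1 (R 4.3.3), and p-values were adjusted over all clones after Benjamini and Hochberg, with a threshold of 5%. Both arrays of a pair carry the same pools, so dye and even-odd tests took the pair as replicate, and the between-pool fit had 3 residual degrees of freedom. Residuals of the 2 arrays of a pair correlated at 0.269 in the dye fit and -0.045 in the even-odd fit, signs as deposited. The residual between arrays of a pair is technical, so between-pool p-values speak of these pools only. The tests were run on simulated data first, with noise drawn independently for each array, so correlation within a pair was not covered. Genes named are the members, all list members with a clone, and the 5 clones most like each member. Members and lists were chosen with earlier results of these data known. Alternatives concerned centring, scaling, spots, direction, moderation, the replicate block and left-out pairs or arrays.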

Additional observations from a re-analysis of the deposited data

How the results depend on the processing

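The dye component of *Sod2* and of *Sod3* stayed above 0 under each of 27 alternatives, but passed 5% under 8 and did not under 19 for either clone. In many of these the sign could not change. Settings of moderation or block keep the estimate, and with all 4 pairs above 0 no left-out pair can turn it. With the values read as dye over dye, the value counted here is the even-odd component of the main reading. The number of clones called in the dye component was 723. It was 270 after quantile normalization, 286 when the arrays were scaled to one spread, 51 with odd spots alone, 187 with even spots alone, 95 when each spot was its own row, 481 when the sign of the reversed-label array was turned in pair 3, and 3 to 359 with 1 pair left out. It was 0 without moderation, with 8 arrays and no replicate block, with normal-label arrays alone, with reversed-label arrays alone and with the values read as dye over dye, in which the even-odd component took the 723 calls. With 1 array left out and the other 7 taken as independent it was 0 to 501. The between-pool F-test called 3 clones without pair 4, and 8 when pair 3 kept only its normal-label array.

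With the pair as a replicate block over 8 arrays, 826 clones were called, and *Sod2* (limma adjusted p = 0.0256) and *Sod3* (0.0168) passed. Of the 6 clones called in the lists, the block ended the calls of *Ccs* and *ND-13A* alone. With the values read as dye over dye, the values of *Sod2* and *Sod3* of 0.75 and 0.78 belong to the pools and 0.39 and 0.40 to the dye. When each spot was its own row, *Sod2* stood at 0.80 and 0.71 and *Sod3* at 0.76 and 0.80, none past 5% (limma adjusted p between 0.0513 and 0.107). In fits to 1 spot of each clone, only *Sod2* on even spots passed (limma adjusted p = 0.0485, against 0.106 on odd spots, and 0.0528 and 0.052 for *Sod3*). Settings that leave out pairs or arrays hold fewer of them. For the other settings the cause was not tested. Signal over background was not used here, so whether dim or saturated spots bear on these ratios cannot be told.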
